A study of Rattus norvegicus with 4 samples.

Results

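RNA-binding, Hmga and DNA methylation genes, several of them known from fetal growth, were followed in the carotid body (CB), a small sensor of arterial oxygen built around glomus cells. They were the 10 entries of the 32883 in the gene table that carry the names Lin28a, Lin28b, Igf2bp1, Igf2bp2, Igf2bp3, Hmga1, Hmga2, Dnmt1, Dnmt3a and Dnmt3b. They were picked by name, with earlier results of these data known. Poly A+ RNA of whole CBs from Sprague Dawley rats, with no treatment named, was sequenced in 4 libraries, of which 2 came from neonates of day 5 and 2 from adults of day 21. Each neonatal library pooled CBs of 6 pups and each adult library those of 3 rats, per the series description. The paper describes larger pools and more replicates than were analysed here. Day 21 is the weaning age, so the adult group was young.

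LIN28 proteins bind the precursors of the let-7 microRNAs and stop their maturation, and let-7 in turn represses Lin28b, Hmga2 and the Igf2bp messages. The IGF2BP proteins hold and stabilize fetal messages, among them that of the growth factor Igf2. HMGA proteins bend AT-rich DNA and are abundant in embryonic cells. DNMT1 copies DNA methylation onto the new strand at each division, while DNMT3A and DNMT3B place new methyl groups. Several of these genes are known for falling as tissues leave the fetal state, and the comparison of ages asked which of them still changed between day 5 and day 21.

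The 10 genes did not move as a block. Igf2bp2 and Igf2bp3 were more than 3-fold higher in neonates, Dnmt1 was 1.5-fold higher, and Dnmt3a and Dnmt3b were lower in neonates. Hmga1 did not pass the test. Lin28b and Hmga2 were listed at 0 counts in all 4 libraries, Lin28a had 3 counts in all, and Igf2bp1 lay near 1 CPM, the count scaled to an equal library total.

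**Figure D1:**
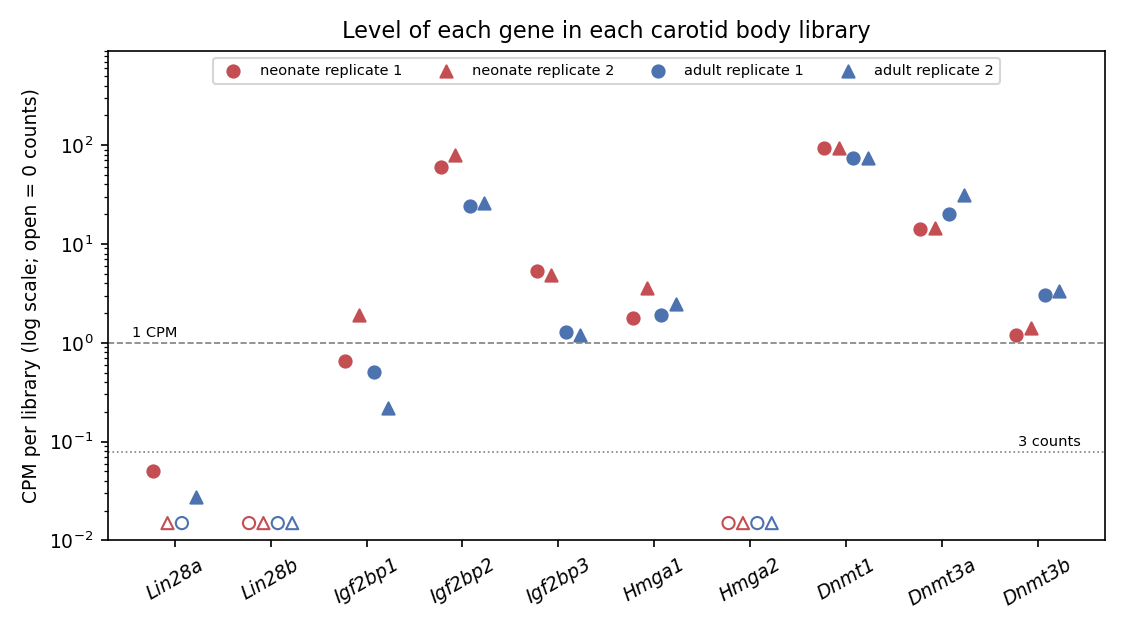
CPM of each of the 10 genes in each library, on a log scale, with red for neonates, blue for adults, and open symbols at the bottom for 0 counts. The dashed line marks 1 CPM and the dotted line 3 counts. Neonatal points lie above adult points for Igf2bp1, Igf2bp2, Igf2bp3 and Dnmt1, below them for Dnmt3a and Dnmt3b, and among them for Hmga1.

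Libraries held 36286191 to 39476110 estimated counts, at which 3 counts, the floor of detection used here, correspond to 0.076 to 0.0827 CPM. CPM were taken from the raw counts, whereas log2 fold changes came from edgeR after TMM scaling, with factors of 0.902 and 0.935 in neonates and 1.08 and 1.1 in adults. Without TMM, the log2 fold change at the median gene moved from -0.0029 to -0.25. Genes of mitochondrial DNA took 15.6% to 18.7% of the counts in neonates and 9.06% to 9.08% in adults. All 9 glomus cell markers looked for were detected, of which 4 were higher in neonates, 3 were lower and 2 did not pass. Over all genes tested 31.2% were higher and 31.1% lower. Tyrosine hydroxylase (Th), 1 of the 3 lower markers, stood at 917 and 781 CPM in neonates and at 1517 and 1242 CPM in adults. After TMM scaling its log2 fold change was -0.45 (SE 0.13), and it ran from -0.60 to -0.29 with 1 library left out. The 4 higher markers were Slc18a1, Chga, Kcnk3 and Cox4i2. With 2 libraries an age, exact permutation for 1 gene cannot give a two-sided p below 0.333, so adjusted p come from edgeR's quasi-likelihood test, in which all genes inform the spread. These p measure the spread between pools. In whole tissue, fewer cells of a type and less RNA in each cell cannot be told apart.

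Of the 10 genes, 6 met the expression filter (1 CPM in 2 or more libraries). Among these, 3 were higher and 2 lower in neonates at an adjusted p below 0.05 in edgeR's quasi-likelihood test. Of the 13843 genes tested 62.3% passed in either direction, 31.2% as higher in neonates and 31.1% as lower. With a fold change of at least 2 as well, the threshold for a differentially expressed gene, 2 of the 6 were higher and 1 lower, against 20.8% of all genes. Over all genes, 7.68% were called higher in neonates at that threshold and 13.2% lower, or 1063 and 1822 genes, and with library size alone as the scaling 704 and 2550. The 6 genes tested are not the whole group, and these shares describe them without singling them out.

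Lin28a (ENSRNOG00000060320) and Lin28b (ENSRNOG00000025938) encode the RNA-binding proteins that hold back let-7. Lin28b had 0 counts in every library, which allows up to 3 counts, or 0.0827 CPM in the shallowest library. Lin28a had 2 counts in neonate replicate 1, 0 in neonate replicate 2, 0 in adult replicate 1 and 1 in adult replicate 2, all under the floor. Neither gene was detectable at this depth at either age, and no fold change was formed. In the same table Hells, a chromatin remodeler of dividing cells named for its value, was also listed at 0 in all 4 libraries, as were 13376 entries or 40.7% of the table, so a listing of 0 may not mean that the RNA was absent.

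The let-7 family that LIN28 acts on shares 1 seed, the stretch of bases that pairs with target messages. It is shown to place the pathway, since mature microRNAs were not measured. The RefSeq set for GRCr8 held 9 mature members, all with the seed GAGGUAG (bases 2 to 8, in capitals), of which 3 are given here.
let-7a-5p: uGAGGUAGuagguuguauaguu
let-7g-5p: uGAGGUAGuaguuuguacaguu
miR-98-5p: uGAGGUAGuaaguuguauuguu
LIN28 zinc knuckles recognize the letters GGAG in the loop of a let-7 precursor. In 8 of the 10 let-7 family hairpins with both arms annotated, GGAG stood between the arms on the transcribed strand, against 9.13% of all 263 such hairpins. The stretch between the arms of a hairpin with these letters, in capitals, is shown.
let-7g: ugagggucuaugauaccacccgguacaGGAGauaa
The 10 entries for let-7 family precursor genes were all at 0 counts. Such short RNA carries no poly A tail.

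Of 18 genes of the LIN28 and let-7 pathway in the table, 17 were tested, and 4 were higher and 9 lower in neonates by edgeR's quasi-likelihood test. Of these, 0 were 2-fold higher and 3 were 2-fold lower. Their median log2 fold change was -0.51, beside -0.0029 for all genes, of which 31.2% passed as higher and 31.1% as lower. With scaling to library size alone 1 was higher and 13 were lower, and no gene that had passed turned its direction. The 3 genes past 2-fold were Ago1, Ago3 and Ddx17. Ago1, an Argonaute protein that carries microRNAs, had 4.48 and 3.64 CPM in neonates and 11.7 and 12.7 CPM in adults, or a log2 fold change of -1.34 (SE 0.21, adjusted p = 0.00059 from edgeR). Ago3 was lower in neonates by the same test at -1.55 (SE 0.40). The RNA helicase gene Ddx17, a cofactor of microRNA processing whose counts are partly shared with other sequences, was at -1.29 (SE 0.10). All 3, picked for their 2-fold call, were lower in both neonatal than in both adult libraries, as were 55.3% of all genes tested.

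Genes that process the precursors differed in both directions, given here as log2 fold changes. Toward neonates by less than 2-fold were, named after their values were seen, Drosha (0.82, SE 0.08) and Dgcr8 (0.45, SE 0.08), which make up the nuclear processing complex, though Dgcr8 did not pass with scaling to library size alone. Toward adults by less than 2-fold, also named after their values were seen, were 3 genes. They were Khsrp (-0.87, SE 0.10), a binder of precursor loops, the uridylyl transferase gene Tut7 (-0.65, SE 0.11) and the exporter gene Xpo5 (-0.27, SE 0.09). The difference of Xpo5 was small and ran from -0.35 to -0.18 with 1 library left out. Dicer1, the nuclease that cuts the precursor loop off, had 81.5 and 85 CPM in neonates and 102 and 100 CPM in adults, and after TMM scaling its log2 fold change was -0.03 (95% interval -0.20 to 0.14, adjusted p = 0.71 from edgeR). Dis3l2, the exonuclease that destroys precursors marked by LIN28 and a uridylyl transferase, was at -0.09 (95% interval -0.33 to 0.15). With scaling to library size alone both passed toward adults, Dicer1 at -0.28 (adjusted p = 0.015) and Dis3l2 at -0.34 (adjusted p = 0.02 from edgeR). Trim71, a let-7 target of early embryos, had 6, 0, 0 and 5 counts and was not tested.

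Of 24 genes known as let-7 targets, 20 were tested, and 6 were higher and 10 lower in neonates, 0 and 4 of these by at least 2-fold (edgeR). Their median log2 fold change was -0.04, and over all genes 31.2% passed as higher and 31.1% as lower. Igf1r, the receptor for insulin-like growth factors, had 2.23 and 2.29 CPM in neonates against 10.8 and 11.9 CPM in adults, or a log2 fold change of -2.08 (SE 0.22, adjusted p = 6.6e-05 from edgeR). Plag1, a transcription factor that acts on Igf2, was at -1.42 (SE 0.19), and the insulin receptor gene Insr at -1.09 (SE 0.11). These 3 were thus higher in adults. With scaling to library size alone, the counts were 2 higher and 10 lower.

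The Igf2bp genes carried the largest differences of the group. Igf2bp2 (ENSRNOG00000025946) stood at 59.8 (replicate 1) and 79.6 CPM (replicate 2) in neonates and at 24 and 25.9 CPM in adults. Both neonatal libraries lay above both adult libraries, as in 83.1% of all genes tested in either direction, 27.9% with neonates above and 55.3% with adults above. Means were 69.7 ± 14 CPM and 24.9 ± 1.34 CPM (SD, n = 2 each), and edgeR gave a 3.31-fold higher level in neonates (95% interval 2.71 to 4.05, log2 fold change 1.73, SE 0.13, adjusted p = 1.2e-05). Ranked by log2 fold change from the highest, it was gene 345 of 13843.

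Igf2bp3 (ENSRNOG00000009052), which is known as an oncofetal gene that most adult tissues keep silent, had 5.27 and 4.8 CPM in the neonatal libraries and 1.3 and 1.21 CPM in the adult libraries. It was above 1 CPM at both ages, and the ages did not overlap, with neonates above as in 27.9% of all genes tested. Its level was 4.75-fold higher in neonates (95% interval 3.01 to 7.49, log2 fold change 2.25, SE 0.29, adjusted p = 0.00019 from edgeR), and it ranked 156 of 13843. Over all alternatives its log2 fold change ran from 2.0 to 2.35.

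Igf2bp1 (ENSRNOG00000006122), the third paralog, is known for the transport of beta-actin message in neurons. It had 26 and 73 counts in neonates and 19 and 8 in adults, which is 0.659, 1.9, 0.503 and 0.22 CPM. It reached 1 CPM in neonate replicate 2 alone and was therefore not tested with the other genes. When no filter on low counts was set, edgeR gave a log2 fold change of 2.01 (SE 0.68, adjusted p = 0.038). That value rests on neonate replicate 2, without which it was 1.10 (adjusted p = 0.28 from edgeR), and it also lost the threshold without adult replicate 1 (2.73, adjusted p = 0.05) and without adult replicate 2 (1.53, adjusted p = 0.2 from edgeR).

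**Figure D2:**
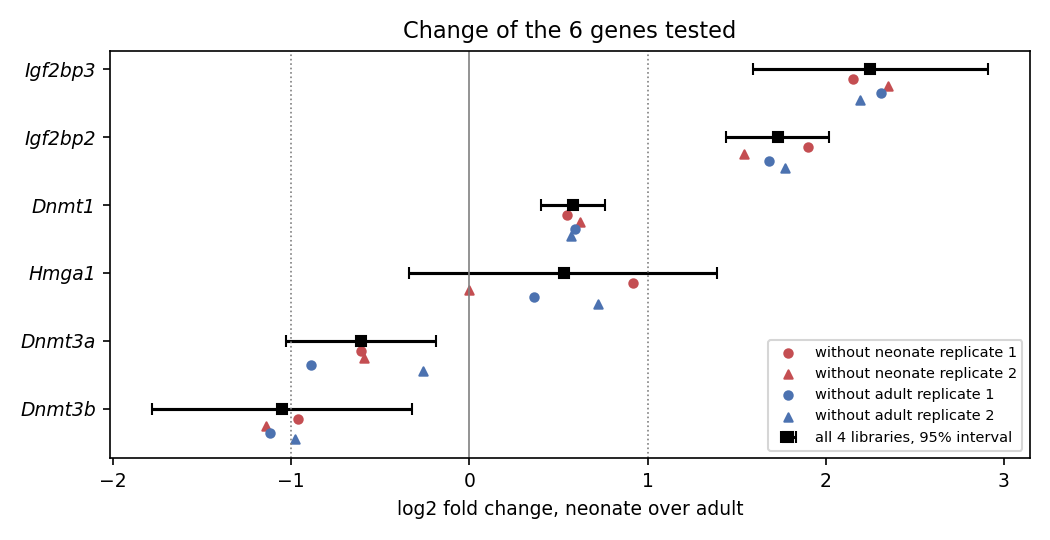
Log2 fold change, neonate over adult, of the 6 genes tested, with black squares for all 4 libraries, bars for the 95% interval of edgeR's quasi-likelihood test, and coloured points for the same fit without 1 library. Dotted lines mark 2-fold. Igf2bp2 and Igf2bp3 stay beyond 2-fold with any 1 library left out, whereas Hmga1 runs from -0.0039 to 0.92 and Dnmt3a from -0.89 to -0.26.

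Within a library, ratios of counts do not depend on scaling. There were 11.3 and 16.6 counts of Igf2bp2 for each count of Igf2bp3 in neonates and 18.5 and 21.3 in adults. Igf2bp3 thus took its largest share relative to Igf2bp2 in neonate replicate 1. The value of neonate replicate 2 lay near that of adult replicate 1, and these rest on only 185 and 49 counts of Igf2bp3. As message lengths are not in the files, this ratio is of counts and not of molecules. Igf2bp2 made up 91% and 92.2% of the Igf2bp counts in neonates and 93% and 94.7% in adults. With 2 libraries an age this difference cannot pass an exact permutation test.

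The promoters of Igf2bp2 and Igf2bp3 are shown because both genes passed the test in the same direction and because CpG sites, where C is followed by G, are what DNMT enzymes methylate. The sequences are the 250 bases before the start of each gene in RefSeq on GRCr8, with CG in capitals, and 8 of the 10 genes had an entry.
Igf2bp2, chr11:92378658-92378907, plus strand: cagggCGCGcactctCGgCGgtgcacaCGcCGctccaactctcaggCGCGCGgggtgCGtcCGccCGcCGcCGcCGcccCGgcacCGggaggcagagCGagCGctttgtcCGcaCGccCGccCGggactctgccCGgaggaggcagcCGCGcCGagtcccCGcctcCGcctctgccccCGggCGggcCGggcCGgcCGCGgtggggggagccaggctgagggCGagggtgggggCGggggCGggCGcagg
Igf2bp3, chr4:79525731-79525980, minus strand: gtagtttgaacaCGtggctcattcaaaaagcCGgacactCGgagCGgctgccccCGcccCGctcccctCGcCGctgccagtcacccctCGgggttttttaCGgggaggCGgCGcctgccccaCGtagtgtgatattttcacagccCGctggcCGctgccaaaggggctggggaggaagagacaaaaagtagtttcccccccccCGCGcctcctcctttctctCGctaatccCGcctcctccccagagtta
The Igf2bp2 stretch held 39 CpG sites and that of Igf2bp3 held 19, against a median of 5 over 33469 promoters of the same length, of which 92.2% held at least 1. Among the other genes, Hmga1 had 41, Dnmt3a 18, Dnmt1 9, Hmga2 7, Lin28a 5 and Lin28b 2. Methylation itself was not measured.

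Igf2, the message best known as IGF2BP cargo, was itself far higher in neonates, at 2742 and 2950 CPM against 682 and 664 CPM in adults. Its log2 fold change was 2.33 (SE 0.10, adjusted p = 1.4e-06 from edgeR), and its counts are partly fractional. There were 45.9 and 37.1 counts of Igf2 for each count of Igf2bp2 in neonates and 28.5 and 25.7 in adults. Igf2 thus differed between ages by more than Igf2bp2 did, by 1.52-fold in this ratio of counts. The ages did not overlap in it, but with 2 libraries an age such a ratio cannot pass an exact permutation test.

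IGF2BP proteins also read the methyl mark m6A on messages. Of 25 partners, cargo messages and m6A genes, all tested, 10 were higher and 10 lower in neonates by edgeR's quasi-likelihood test, with 1 and 2 of them past 2-fold. Among all genes tested 31.2% passed as higher and 31.1% as lower, and the median log2 fold change of the list was 0.02. Apart from Igf2, the genes past 2-fold were Ythdc2, an m6A reader and helicase, at -1.58 (SE 0.16), and Rbm15, which guides the m6A writer complex, at -1.03 (SE 0.23). Both were higher in adults, Ythdc2 at 17.8 and 18.4 CPM against 4.83 and 5.4 CPM. With scaling to library size alone, 4 were higher and 12 lower, and Ythdc1 and Wtap, small differences toward neonates, turned sign.

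Hmga1 (ENSRNOG00000000488), the HMGA gene that stays on in many dividing cells, stood at 1.8 CPM in the first neonatal replicate and 3.56 CPM in the second, against 1.91 and 2.48 CPM in adults. The ages overlapped. Means were 2.68 ± 1.24 and 2.19 ± 0.406 CPM (SD, n = 2 each), and the log2 fold change of 0.53 (SE 0.38, 95% interval -0.34 to 1.39) had an adjusted p of 0.26 from edgeR. Its value was set by a single neonatal pool, since it was 0.92 without neonate replicate 1 (adjusted p = 0.03 from edgeR) and -0.0039 without neonate replicate 2, and the adjusted p ran from 0.03 to 0.99 over all alternatives (edgeR, DESeq2 and limma). Copies of Hmga1, Dnmt3a, Dnmt3b and Lin28a are annotated in RefSeq as pseudogenes, and although the counts of all 10 genes were whole, reads assigned to such copies would be missed. Hmga2 (ENSRNOG00000042460), the HMGA gene most confined to the embryo and a classical let-7 target, was listed at 0 counts in all 4 libraries.

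The neonatal libraries, of which replicate 2 had more of Igf2bp1 and Hmga1, also differed from each other in marker genes. The 7 erythroid genes found, globins included, summed to 11645 CPM in neonate replicate 1, 6861 in neonate replicate 2, and 3038 and 2690 in adults. Over all genes tested 31.2% passed as higher in neonates and 31.1% as lower, and with a 2-fold change as well 7.68% and 13.2%. All 5 erythroid genes tested were more than 2-fold higher in neonates. All 5 sympathetic neuron markers were higher in neonates, 3 of them past 2-fold, with sums of 1471 and 1272 CPM against 1051 and 821 CPM. Mural cell markers (1 of 5 higher, 3 lower) summed to 1084 and 1159 CPM in neonates and 2132 and 2279 CPM in adults. Fibroblast markers (3 of 5 lower, 0 higher) summed to 11665 and 14460 CPM in neonates and 17989 and 20194 CPM in adults. Most of these sums came from Col1a1 and Col3a1, which did not pass (log2 fold changes of -0.13 and -0.30 after TMM scaling). Macrophage markers (1 of 5 higher, 3 lower) summed to 44.4 and 50.1 CPM in neonates against 83.8 and 83.8 CPM in adults. Among the erythroid genes, Rhag had 3, 0, 1 and 8 counts and was not tested. Their part in the results was not tested.

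Most other high mobility group genes were higher in neonates. Of 14 such genes, all tested, 9 were higher and 2 lower in neonates, among them 5 and 0 by at least 2-fold (edgeR). Among all genes tested 31.2% passed as higher and 31.1% as lower. The median log2 fold change of the list was 0.66, and 0.42 with scaling to library size alone. Hmgb2, a DNA-bending protein of dividing cells, had 345 and 350 CPM in neonates and 85.4 and 80.3 CPM in adults, or a log2 fold change of 2.31 (SE 0.08, adjusted p = 1.4e-06 from edgeR). Hmg20b, a subunit of a histone demethylase complex, was at 1.57 (SE 0.09) and the HMG-box gene Tox3 at 1.27 (SE 0.23). Hmgb2 counts are partly shared with other sequences, and Hmg20b and Tox3 have whole counts.

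The DNA methyltransferases split. Dnmt1 (ENSRNOG00000039859), the maintenance enzyme, had 94.1 and 92.8 CPM in neonates and 74.1 and 74.1 CPM in adults, with SDs of 0.914 and 0.00705 CPM. Neonates lay above adults, as in 27.9% of all genes tested. The level in neonates was 1.5-fold higher by edgeR (95% interval 1.32 to 1.69, log2 fold change 0.58, SE 0.08, adjusted p = 0.00025). Scaled to library size alone the log2 fold change was 0.33 (adjusted p = 0.0064 from edgeR), so part of its size depends on the scaling.

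Dnmt3a (ENSRNOG00000026649) and Dnmt3b (ENSRNOG00000010625), the enzymes that set new methylation, went the other way. Dnmt3a had 14.1 and 14.5 CPM in neonates, 20.2 CPM in adult replicate 1 and 31.6 CPM in adult replicate 2. The ages did not overlap, with adults above as in 55.3% of all genes tested. Means were 14.3 ± 0.251 and 25.9 ± 8.07 CPM, but most of the adult difference came from a single pool. The log2 fold change was -0.61 (SE 0.19, adjusted p = 0.018 from edgeR) and was -0.26 without adult replicate 2 (adjusted p = 0.22 from edgeR). Without adult replicate 1 it was -0.89, and over all alternatives (edgeR, DESeq2 and limma) the adjusted p ran from 0.00037 to 0.22.

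Dnmt3b had 47 and 54 counts in neonates and 114 and 122 in adults, which is 1.19, 1.4, 3.02 and 3.36 CPM. Adults lay above neonates by 2.07-fold in edgeR's estimate (log2 fold change -1.05, SE 0.32, adjusted p = 0.019). With the adults reduced to 1 library the direction was kept and the threshold lost, at -1.12 (adjusted p = 0.078) without adult replicate 1 and -0.98 (adjusted p = 0.13 from edgeR) without adult replicate 2, in a range of 0.0076 to 0.13 over all alternatives. Their cofactor Dnmt3l, which has no enzyme activity of its own, had 4, 13, 7 and 14 counts and was not tested.

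The promoters of Dnmt1 and Dnmt3a are given in the same form, as the pair of methyltransferase genes that moved in opposite directions.
Dnmt1, chr8:27762842-27763091, minus strand: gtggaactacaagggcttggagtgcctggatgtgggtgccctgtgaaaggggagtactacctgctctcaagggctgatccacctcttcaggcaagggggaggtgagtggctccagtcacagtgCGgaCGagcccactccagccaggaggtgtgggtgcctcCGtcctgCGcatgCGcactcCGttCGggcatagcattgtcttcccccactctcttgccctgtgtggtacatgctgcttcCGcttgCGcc
Dnmt3a, chr6:32598352-32598601, plus strand: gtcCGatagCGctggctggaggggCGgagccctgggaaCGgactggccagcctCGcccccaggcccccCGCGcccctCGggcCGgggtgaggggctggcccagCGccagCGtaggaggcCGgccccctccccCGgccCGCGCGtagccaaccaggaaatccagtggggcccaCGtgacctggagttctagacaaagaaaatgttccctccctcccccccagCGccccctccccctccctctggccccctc
The Dnmt1 stretch held 9 CpG sites (61.6% GC) and that of Dnmt3a held 18 (74% GC).

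Ratios within a library, where scaling plays no part, restate the same counts and are no separate evidence. For each count of Dnmt3a there were 6.67 and 6.42 counts of Dnmt1 in neonates and 3.67 and 2.35 in adults. For each count of Dnmt3b there were 79 and 66.2 counts of Dnmt1 in neonates and 24.6 and 22 in adults. Neonates were above adults in both ratios, by 2.23-fold and 3.11-fold in the mean of the log2 ratios. The lack of overlap follows from the opposite directions of the genes paired. The ratio to Dnmt3a also carries adult replicate 2, the pool with most Dnmt3a. The ratio of Dnmt3a to Dnmt3b was 11.9 and 10.3 in neonates and 6.68 and 9.39 in adults. Dnmt1 made up 86% and 85.4% of the counts of the 3 genes in neonates and 76.2% and 68% in adults. An exact permutation test of such a ratio cannot go below a two-sided p of 0.333.

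**Figure D3:**
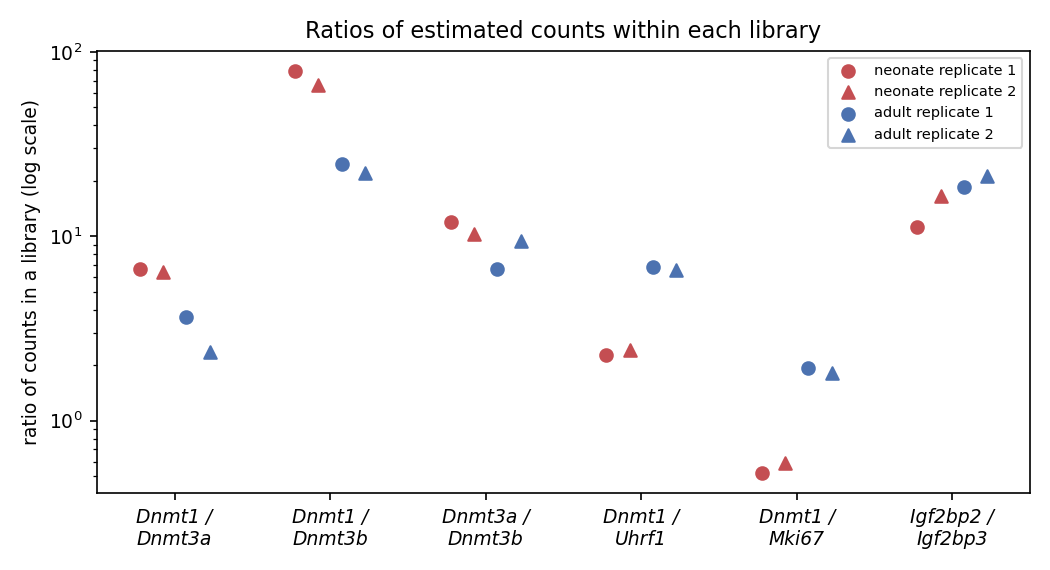
Ratio of estimated counts of 2 genes within each library, on a log scale, with red for neonates and blue for adults. Dnmt1 to Dnmt3a is 6.67 and 6.42 in neonates and 3.67 and 2.35 in adults, while Dnmt1 to Mki67 is lower in neonates, at 0.52 and 0.588 against 1.93 and 1.82.

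Because DNMT1 acts at replication, markers of dividing cells are given beside it. Of 23 proliferation genes, all tested, 22 passed as higher in neonates and 0 as lower, against 31.2% and 31.1% of all genes. Past 2-fold were 21, and the median log2 fold change over the 23 was 1.71. The nuclear antigen of cycling cells Mki67 had 181 and 158 CPM in neonates and 38.4 and 40.6 CPM in adults, at 2.35 (SE 0.10, adjusted p = 1.4e-06 from edgeR). Birc5, which guides chromosome separation, was at 2.65, the mitotic kinase gene Cdk1 at 2.64 and Aurkb at 2.46. For each count of Mki67 there were 0.52 and 0.588 counts of Dnmt1 in neonates and 1.93 and 1.82 in adults, so Dnmt1 differed between ages much less than Mki67 did. Whether dividing cells account for the Dnmt1 difference was not tested.

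Other genes of DNA methylation differed in both directions, at shares near those over all genes. Of the 31 in the table, 28 were tested, and 9 were higher and 9 lower in neonates by edgeR's quasi-likelihood test, with 4 and 5 of them past 2-fold. Over all genes 31.2% passed as higher in neonates and 31.1% as lower, and the median log2 fold change of the list was -0.07. With scaling to library size alone, 6 were higher and 15 lower, and Tdg turned sign.

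The 4 genes past 2-fold toward neonates were Uhrf1, Cdca7l, Cdca7 and Mbd6. Uhrf1, which brings DNMT1 to newly copied DNA, had 41.4 and 38.2 CPM in neonates and 10.8 and 11.3 CPM in adults, or a log2 fold change of 2.09 (SE 0.11, adjusted p = 2.4e-06 from edgeR). Cdca7l was at 1.69 (SE 0.23) and Cdca7, the partner of the remodeler Hells, at 1.49 (SE 0.15). Named after their values were seen, Mbd6, of the methyl-CpG-binding domain family, was at 1.07 (SE 0.09), and Usp7, a deubiquitinase that binds DNMT1 and UHRF1, was at 0.15 (adjusted p = 0.12 from edgeR). There were 2.27 and 2.43 counts of Dnmt1 for each of Uhrf1 in neonates and 6.85 and 6.54 in adults, so Uhrf1 differed between ages by more than Dnmt1.

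The 5 genes past 2-fold toward adults were Tet1, Tet2, Tet3, Zbtb4 and Zbtb38. TET enzymes oxidize the methyl mark and start its removal. Tet2 had 19.5 and 21.6 CPM in neonates and 57 and 60.4 CPM in adults, or a log2 fold change of -1.27 (SE 0.09, adjusted p = 1.1e-05 from edgeR). Tet3 was at -1.75 (SE 0.30), with 9.5 and 15.7 CPM in the adult libraries. Tet1, at 1.04 and 1.12 CPM against 2.49 and 2.7 CPM, was at -1.02 (SE 0.34, adjusted p = 0.025 from edgeR), and the highest adjusted p with a library left out was 0.15. All 3 TET genes were thus lower in neonates in the same direction as Dnmt3a and Dnmt3b.

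The largest differences of the list belonged to a pair of zinc finger readers of methylated CpG. Zbtb4 had 8.18 and 7.27 CPM in neonates and 52.8 and 60.1 CPM in adults, 6.15-fold higher in adults (log2 fold change -2.62, SE 0.12, adjusted p = 1.6e-06 from edgeR). Zbtb38 was 4.98-fold higher in adults, at 4.71 and 5.58 CPM against 29.6 and 31.1 CPM.

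**Figure D4:**
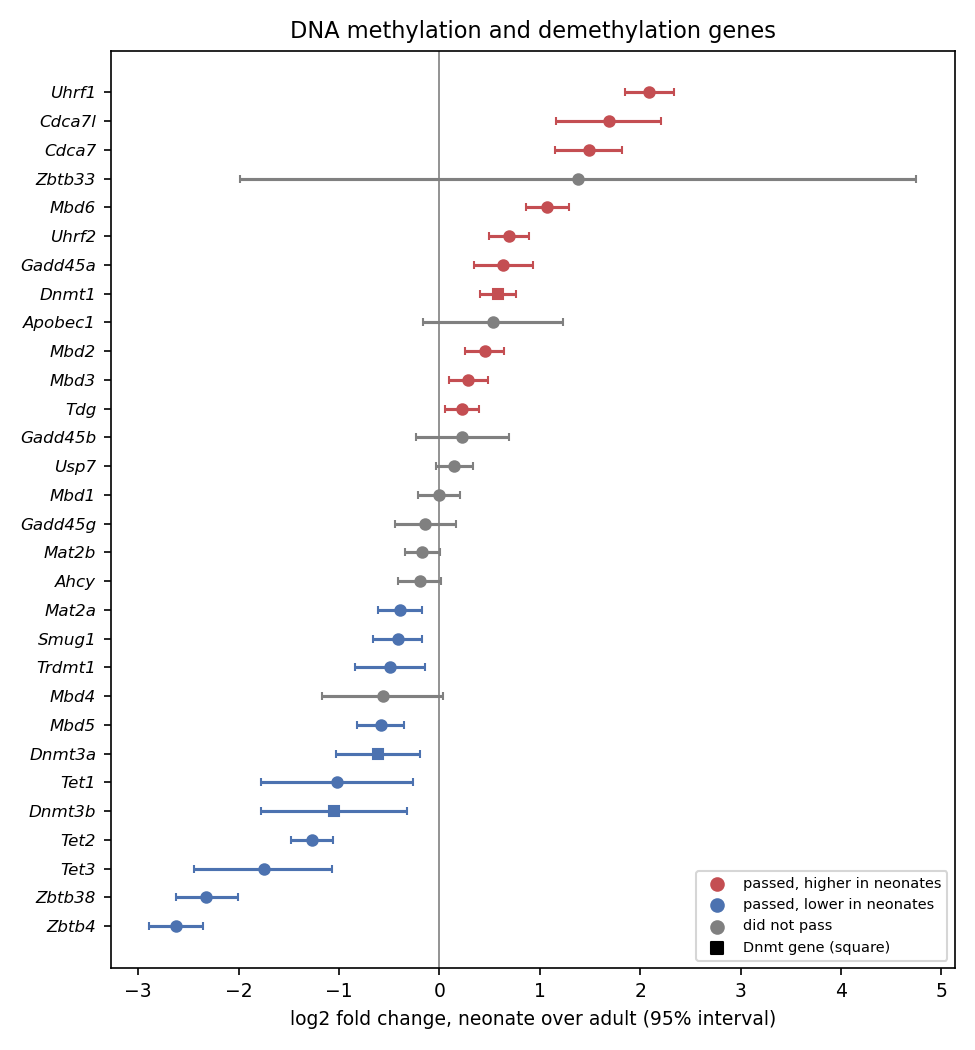
Log2 fold change, neonate over adult, with 95% intervals, of genes of DNA methylation and demethylation (circles) and the 3 Dnmt genes (squares). Red genes passed an adjusted p of 0.05 and were higher in neonates, blue genes lower, and grey genes did not pass. Dnmt1, at 0.58, stands among the red genes with Uhrf1 at 2.09, while Dnmt3a (-0.61) and Dnmt3b (-1.05) stand among the blue genes with Tet1, Tet2 and Tet3.

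Genes with the most similar pattern over the 4 libraries were found by the Euclidean distance of centred log2 CPM among all genes tested. For Igf2bp3 the nearest was Ndc80 (distance 0.0357), a kinetochore subunit, at 33.3 and 31 CPM in neonates and 8.34 and 7.85 CPM in adults, followed by Fignl1 (0.0808). For Igf2bp2 they were Rexo5 (0.0624) and Vash2 (0.0732). Dnmt1 lay nearest to Bloc1s1 (0.00284) and Prpf38b (0.0127), Dnmt3a to Prodh1 (0.0369) and the entry AABR07048419.2 (0.0401), Dnmt3b to Arhgap23 (0.0294) and Epb41l2 (0.031), and Hmga1 to Adamts16 (0.0634) and Rfx2 (0.079). With 4 libraries such likeness is easily met, and it is a description only.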

How the data were processed

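Libraries were grouped by age from the sample labels, 2 at day 5 and 2 at day 21, each from pooled CBs. The table deposited by the authors holds estimated counts for each gene, made with trimming, STAR and Salmon (1.5.2 in the submitters' processing notes) on Rnor_6.0, unnormalized and unfiltered. Between 5.02% and 6.19% of entries in a library were fractional, a sign of reads shared among similar sequences, and values were rounded. The 636 entries annotated as other than protein-coding, matched by symbol to RefSeq (GRCr8), were removed, and the expression filter left 13843 genes at 1 CPM or more in 2 or more libraries.

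Ages were compared in R 4.3.3 with edgeR 4.0.16 (quasi-likelihood test, TMM, Benjamini-Hochberg over all genes tested). SE is the log2 fold change divided by the square root of F. A gene passed at an adjusted p under 0.05, and was called if also 2-fold changed. Floors and intervals cover counting error or the spread between pools only. On simulated data for this comparison, with 13843 genes, 98 of 100 genes changed 2-fold and 100 of 100 changed 4-fold were recovered, and 4 unchanged genes passed.

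Alternatives were DESeq2 1.42.0, limma-voom (limma 3.58.1), RLE factors, library size alone, TMM without mitochondrial and ribosomal genes, other filters, all genes kept, no minimum fold, a replicate block, and each library left out. Genes and lists were chosen with earlier results of these data known. Named list genes are the 3 with the largest log2 fold change called in each direction, and a few fixed by name. Where a symbol had several entries, that with most reads was used. Names absent from the table, H19 among them, were not analysed here, and a few items are not reported here.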

Additional observations from a re-analysis of the deposited data

How the results depend on the processing

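Igf2bp2, Igf2bp3 and Dnmt1 kept their direction and an adjusted p under 0.05 (edgeR, DESeq2 and limma) under every alternative run in which they were tested, with log2 fold changes of 1.48 to 1.90, 2.0 to 2.35 and 0.33 to 0.62. Of the 10 genes, 2 were called higher in neonates with each library left out in turn, and 0 to 1 lower. With 1 library left out, the log2 fold change ran from -0.0039 to 0.92 for Hmga1, from -0.89 to -0.26 for Dnmt3a, from -1.14 to -0.96 for Dnmt3b, and, without a filter on low counts and chosen after seeing the data, from 1.10 to 2.73 for Igf2bp1. A lone library of an age is then assumed to vary like the others. With a mean of at least 5 CPM, Igf2bp3, Hmga1 and Dnmt3b were not tested, so 1 of the 10 genes was called higher and 0 lower, and over all genes 654 were higher and 1169 lower, in place of 1063 and 1822. With library size alone as the scaling, the counts over all genes were 704 higher and 2550 lower, 6 genes of the LIN28 and let-7 list were called in place of 3, and 3 of the high mobility group list in place of 5. With no minimum fold change, 2 of the 10 genes were lower, 4325 genes were higher and 4300 lower over all genes, and 13 genes of the LIN28 and let-7 list, 16 let-7 targets, 20 IGF2BP partners and m6A genes, 11 high mobility group genes and 18 DNA methylation genes passed. The causes were not tested beyond these constructions.

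With the replicate number as a block, 2 of the 10 genes were called higher and 1 lower, 1071 genes were higher and 1866 lower over all genes, and Dnmt3a was at -0.58 (adjusted p = 0.00046 from edgeR). Same-numbered libraries did not deviate together (correlation across genes -0.0154), and nothing in the labels pairs them. No correction for message length or GC was possible from the files.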
